A study of Mus musculus with 4 samples.

Results

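Genes of glutamate and GABA receptors that astrocytes carry were followed through 4 single-cell RNA libraries of mouse frontal cortex and midbrain. They were taken by name, and 10 of 10 were found among the 19040 features that both regional tables list: the AMPA receptor genes Gria1, Gria2 and Gria4, the NMDA receptor gene Grin2c, the metabotropic glutamate receptor genes Grm3 and Grm5, the GABA-B receptor genes Gabbr1 and Gabbr2, and the GABA-A receptor genes Gabrg1 and Gabra2. The 4 groups were frontal cortex and midbrain of transgenic mice, a model of synucleinopathy, and the same regions of wildtype littermates, all C57BL/6 and 6 to 9 months old. Each group was 1 library of cells pooled over mice. The design text gives 3 mice a group, the labels give a mouse number of 3 for frontal cortex and 0 for midbrain, and no cell is tied to a mouse. The labels do not say which promoter drives the transgene. Tissue was dissociated with a protocol meant for glia and vascular cells, so neurons are few. Because each group is 1 library, a difference between groups has no replicate check, no test was run, and genotype or region cannot be told apart from the library. Each 95% interval below covers counting error alone.

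Glutamate and GABA released by neurons reach receptors on the astrocytes that wrap the synapse. AMPA and NMDA receptors are cation channels assembled from several subunits. The edited GluA2 subunit, from Gria2, makes AMPA receptors nearly impermeable to calcium, and astrocytes such as Bergmann glia of the cerebellum are known for AMPA receptors that lack it. Metabotropic glutamate receptors are coupled to G proteins: mGluR5, from Grm5, drives calcium release from stores in young astrocytes, and mGluR3, from Grm3, inhibits adenylyl cyclase in adult ones. GABA-B receptors are obligate pairs of the Gabbr1 and Gabbr2 products and act through Gi/o proteins, and GABA-A receptors are chloride channels built from alpha, beta and mostly gamma subunits.

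The cells that the authors labelled AC, here called astrocytes, numbered 868 transgenic and 1067 wildtype (frontal cortex) and 1512 and 2644 (midbrain), and gave between 6981554 and 16467288 UMIs (molecules counted once each) a library. Of 15 astrocyte markers, 14 in frontal cortex and 13 in midbrain were highest under this label. Median depth was 6638.5 and 7983 UMIs a cell in transgenic and wildtype frontal cortex and 7923.5 and 6320 in midbrain, and the median mitochondrial share was 9.68% and 5.27%, and 7.07% and 6.54%. The genotypes shared the same clusters in different shares: cluster 1 held 44.9% of transgenic and 73.2% of wildtype frontal cortex astrocytes, and cluster 4, of shallow cells (median 2287 and 1819 UMIs), held 35.6% and 19.2%. RNA of other types was present under the label. Summed over 10 microglial markers the astrocytes had 507 and 1036 CPM in frontal cortex and 260 and 239 CPM in midbrain, and over 10 endothelial markers 251 and 622 CPM and 138 and 195 CPM. Over 14 neuronal markers the sums were 149 and 59.9 CPM, and 70.1 and 68.0 CPM, with Slc17a6 at 0 in both frontal cortex libraries. Over 7 markers of oligodendrocyte precursors (OPC) they were 203 and 127 CPM, and 299 and 247 CPM. Over 5 choroid plexus markers, nearly all of it Ttr, they were 21.9 and 13.8 CPM in frontal cortex and 1948 and 3524 CPM in midbrain. Over 5 erythroid markers they were higher in the transgenic library of each region, at 314 and 20.1 CPM, and 261 and 47.0 CPM. Their part in the values below was not tested. Between 3 and 15 cell barcodes were shared by any pair of libraries.

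In astrocytes, more of these genes differed by at least 1.5 times between regions than between genotypes. Levels are counts per 1000000 (CPM) of the UMIs summed over the astrocytes of a library, and a gene was called higher or lower at 1.5 times, a log2 ratio of 0.58, among genes at 5 CPM or more in at least 1 of the libraries compared. In midbrain 4 of the 10 genes were called higher than in frontal cortex in both genotypes (Gria1, Gria4, Grm5 and Gabbr2) and 3 lower in both (Grin2c, Grm3 and Gabra2). Of 11017 genes compared in wildtype astrocytes, 8.31% were called higher and 9.50% lower in midbrain, and of 11064 in transgenic ones 11.0% and 10.4%. The median log2 ratio of the 10 genes was 0.11 in wildtype and 0.23 in transgenic mice, beside 0.01 and 0.01 over all genes compared. Between genotypes, of the 9 genes compared in frontal cortex 0 were called higher and 1 lower (Gria2) in transgenic astrocytes, where 5.65% of 10957 genes were called higher and 5.94% lower. In midbrain 1 of the 10 was called higher (Grm5) and 0 lower, where 2.20% of 10781 genes were higher and 1.26% lower. The median log2 ratio was 0.16 in frontal cortex and 0.04 in midbrain, beside 0.01 and 0.01 over all genes.

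**Figure D1:**
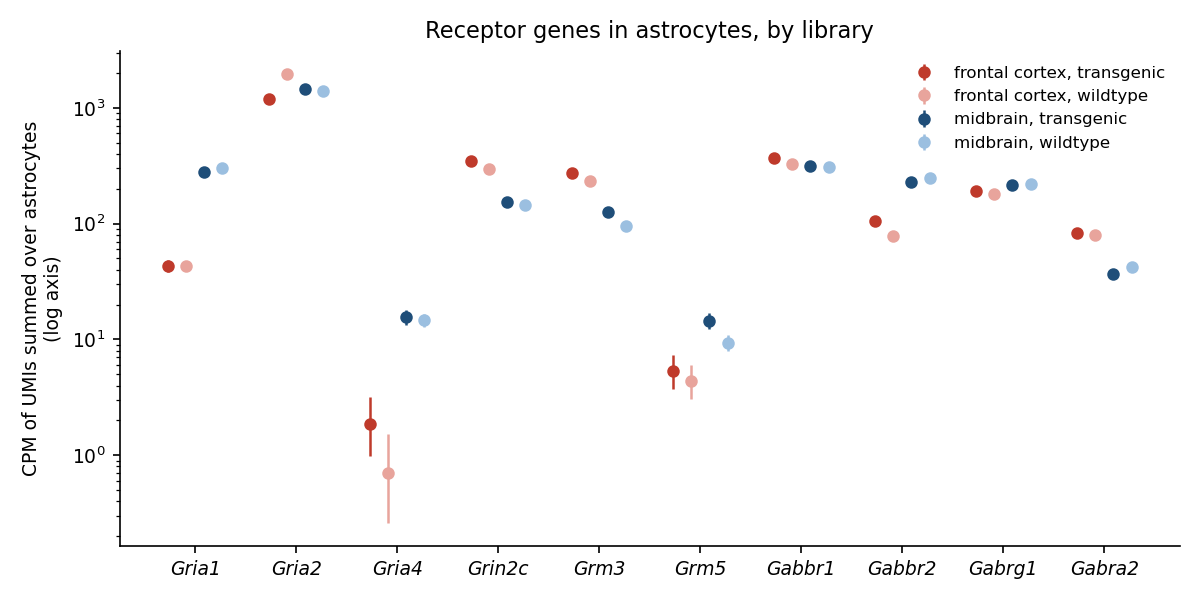
CPM of UMIs summed over astrocytes (log axis) for the 10 receptor genes, with 1 point for each library and exact 95% Poisson intervals that cover counting error only. Gria1 stands at 43.1 CPM in both frontal cortex libraries and at 279 and 302 CPM in midbrain, and Grin2c, Grm3 and Gabra2 are higher in frontal cortex. The UMIs are not divided by length, so points are to be compared within a gene.

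The upstream sequences of the 3 genes that were lower in midbrain in both genotypes, Grin2c, Grm3 and Gabra2, are shown because these genes moved together between regions. RefSeq promoters (GRCm38.p6) matched 8 of the 10 genes, all but Gria1 and Grm5. Each line holds the 250 bases before the start site on the minus strand, 5′ to 3′, at chr11:115267244-115267493 for Grin2c, chr5:9725353-9725602 for Grm3 and chr5:71095850-71096099 for Gabra2. Capitals mark matches on either strand to a GC box (GGGCGG), a half-site of the NFI factors (TTGGC), a SOX core (ACAAAG) or a half-site of the cAMP response element (TGACG).
Grin2c: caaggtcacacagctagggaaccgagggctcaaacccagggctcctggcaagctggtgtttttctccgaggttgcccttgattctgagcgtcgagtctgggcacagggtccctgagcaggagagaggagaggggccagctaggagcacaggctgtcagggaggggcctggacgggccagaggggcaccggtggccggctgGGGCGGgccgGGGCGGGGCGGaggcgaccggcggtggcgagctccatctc
Grm3: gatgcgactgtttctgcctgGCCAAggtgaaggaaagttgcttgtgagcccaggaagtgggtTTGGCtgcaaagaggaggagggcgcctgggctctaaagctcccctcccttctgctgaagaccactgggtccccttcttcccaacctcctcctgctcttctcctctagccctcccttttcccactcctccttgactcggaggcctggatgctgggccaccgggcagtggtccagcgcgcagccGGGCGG
Gabra2: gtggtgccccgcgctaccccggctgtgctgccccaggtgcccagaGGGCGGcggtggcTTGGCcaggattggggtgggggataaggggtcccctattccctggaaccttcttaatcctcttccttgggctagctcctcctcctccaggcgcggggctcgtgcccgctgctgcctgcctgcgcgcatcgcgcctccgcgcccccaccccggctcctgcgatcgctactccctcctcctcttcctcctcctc
All 3 hold a GC box, as do 32.9% of the 27025 promoters in the table. Grin2c has 3 matches, of which a pair overlap, and Grm3 and Gabra2 have 1 each. The NFI half-site, found in 41.9% of promoters, occurs 2 times in Grm3, 1 time in Gabra2 and 0 times in Grin2c. None of the 3 stretches holds the SOX core (16.5% of promoters) or the cAMP half-site (17.9%). Their G and C content was 68.8%, 62.4% and 70.0%. Among the other matched genes Gabbr2, which was higher in midbrain, had 80.8% and 2 GC boxes, while Gabrg1 had 35.6% and 0. A match describes the letters and is not a binding site.

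Gria1 encodes the GluA1 subunit (chromosome 11, 57011387 to 57330244, plus strand, GRCm38, as for all genes below). It was at 43.1 CPM in both transgenic and wildtype frontal cortex astrocytes, from 301 and 366 UMIs, and at 279 and 302 CPM in midbrain. The frontal cortex libraries lie far below the midbrain ones and within their counting intervals of each other. Midbrain exceeded frontal cortex by a log2 ratio of 2.81 (2.66 to 2.97) in wildtype and 2.69 (2.52 to 2.87) in transgenic mice. After each cell was thinned to 3000 UMIs, which left out 233, 200, 311 and 435 shallower astrocytes, Gria1 was found in 9.92% and 6.46% of transgenic and wildtype frontal cortex astrocytes and in 48.4% and 52.6% of midbrain ones. Without thinning these shares were 12%, 12.7%, 62.2% and 64.2%. Microglia, set beside the astrocytes as a background for shares of cells, had thinned Gria1 shares of 0.32%, 0.22%, 1.48% and 1.86% at median depths of 7404, 7373, 8317.5 and 6749 UMIs.

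Gria2 encodes GluA2, the subunit that closes AMPA receptors to calcium (chromosome 3, 80681450 to 80802835, minus strand). It was at 1183 CPM in transgenic and 1958 CPM in wildtype frontal cortex astrocytes and at 1466 and 1384 CPM in midbrain. The transgenic frontal cortex library was the lowest of the 4 and the wildtype one the highest. The log2 ratio of transgenic to wildtype was -0.73 (-0.77 to -0.69) in frontal cortex and 0.08 (0.05 to 0.11) in midbrain. The frontal cortex difference was below 0 in 12 of 12 alternatives and past 1.5 times in 9. It was -0.49 in cells of at least 500 genes and under 10% mitochondrial UMIs, -0.51 in cells under 5% mitochondrial UMIs, and -0.35 in cluster 1 alone, values that do not reach 1.5 times. It was -1.39 in cells with under 4 UMIs of other types' markers (120 transgenic and 171 wildtype cells). The thinned share of cells was 80.2% and 92.4% in frontal cortex astrocytes and 90.4% and 90.6% in midbrain (unthinned 71.9%, 82.6%, 80.2% and 84.1%), against 1.99% to 5.17% in microglia. With the genotypes apart in frontal cortex, midbrain was lower than frontal cortex in wildtype mice (-0.50, -0.53 to -0.47) and higher in transgenic ones (0.31, 0.27 to 0.35). The transgenic value kept its sign in 10 of 11 alternatives and was -0.07 in cluster 1 alone. The wildtype value was -0.10 in cells with under 4 UMIs of other types' markers.

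Gria4 encodes GluA4 (chromosome 9, 4417896 to 4796234, minus strand) and was close to the detection limit in frontal cortex. It had 13 and 6 UMIs there, 1.86 and 0.71 CPM, and 179 and 241 UMIs in midbrain, 15.5 and 14.6 CPM. Midbrain was higher by 4.37 (3.23 to 5.83) in wildtype and 3.06 (2.25 to 4.0) in transgenic mice. The thinned share of astrocytes was 3.58% and 3.67% in midbrain and 0.63% and 0.23% in frontal cortex, where the counting interval of the wildtype share, 0.03% to 0.83%, takes in the microglial share of 0.06%. Gria4 was too low in frontal cortex to enter the comparison of genotypes there. In midbrain the genotypes differed by 0.09 (-0.20 to 0.37).

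The make-up of the AMPA family differed between the pooled astrocytes of the regions and between their clusters. Gria2 gave 96.0% and 97.7% of the UMIs of Gria1 to Gria4 in transgenic and wildtype frontal cortex astrocytes and 83.2% and 81.3% in midbrain. By cluster the share went from 76.0% and 66.4% in cluster 4 to 99% in both genotypes in cluster 1 of frontal cortex, and from 19.4% and 25.9% in cluster 4 to 94.4% and 95.3% in cluster 10 of midbrain. In frontal cortex neurons (label mNeur) the share was 71.4% and 71.7%. Midbrain mNeur cells had 84.6% (transgenic, from 162 UMIs of Gria1 to Gria4) and 81.6% (wildtype), close to midbrain astrocytes. Frontal cortex cells labelled imNeur stood at 91.7% and 95.1%. Those of midbrain, which carry OPC markers, stood at 67.9% and 69.3%. A high Gria2 share therefore did not set astrocytes apart from mNeur cells in midbrain. These shares rest on molecules counted at the 3′ end and compare cell groups, not the abundance of subunits.

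Grin2c encodes GluN2C (chromosome 11, 115249169 to 115267243, minus strand), an NMDA subunit known from astrocytes and cerebellar granule cells. It was at 344 CPM in transgenic and 298 CPM in wildtype frontal cortex astrocytes and at 155 and 144 CPM in midbrain. Both frontal cortex libraries were above both midbrain ones, by -1.05 (-1.13 to -0.97) in wildtype and -1.15 (-1.24 to -1.06) in transgenic mice as a log2 ratio of midbrain to frontal cortex. Between genotypes it differed by 0.21 (0.12 to 0.29) in frontal cortex and 0.11 (0.02 to 0.19) in midbrain, short of 1.5 times. Its thinned share was 61.3% and 56.2% in frontal cortex astrocytes and 33.2% and 34.9% in midbrain, against 0.61% to 2.08% of microglia. Grin2c gave 88.7% and 83.6% of the Grin2a to Grin2d UMIs in frontal cortex astrocytes and 74.6% and 75.5% in midbrain, but 0.47% and 1.85% in frontal cortex neurons.

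Grm3 encodes mGluR3 (chromosome 5, 9485541 to 9725170, minus strand). It was at 273 and 233 CPM in transgenic and wildtype frontal cortex astrocytes and at 126 and 94.7 CPM in midbrain. The 4 libraries are apart beyond their counting intervals, with frontal cortex above midbrain and transgenic above wildtype in each region. The log2 ratio of midbrain to frontal cortex was -1.30 (-1.40 to -1.20) in wildtype and -1.12 (-1.22 to -1.02) in transgenic mice. Transgenic exceeded wildtype by 0.23 (0.14 to 0.32) in frontal cortex and 0.41 (0.30 to 0.51) in midbrain, again short of 1.5 times. The thinned share of astrocytes with Grm3 was 52.8% and 50.2% in frontal cortex astrocytes and 29.2% and 24.9% in midbrain, against 0.21% to 0.80% of microglia.

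Grm5 encodes mGluR5 (chromosome 7, 87584168 to 88134907, plus strand) and was low throughout. It had 37 UMIs in each frontal cortex library, 5.30 CPM in transgenic and 4.36 CPM in wildtype mice, and 166 and 153 UMIs in midbrain, 14.4 and 9.29 CPM. The frontal cortex libraries overlap within counting error and both lie below the midbrain ones. The log2 ratio of transgenic to wildtype was 0.28 (-0.41 to 0.98) in frontal cortex and 0.63 (0.31 to 0.96) in midbrain. The midbrain value lay past 1.5 times in 9 of 12 alternatives. It was 0.50 in cells of at least 500 genes and under 10% mitochondrial UMIs, 0.14 in cluster 1 alone and 0.0022 in cells under 5% mitochondrial UMIs. Midbrain exceeded frontal cortex by 1.09 (0.57 to 1.65) in wildtype and 1.44 (0.92 to 2.0) in transgenic mice. In cells with under 4 UMIs of other types' markers these became 0.11 and -0.06. That filter kept 120 transgenic and 171 wildtype frontal cortex cells, with 340753 and 586102 UMIs of all genes. These ratios therefore rest on very few Grm5 UMIs, have no interval and cannot show whether the regional difference persists. The OPC marker sum of midbrain astrocytes was 299 and 247 CPM, and cells that carry OPC markers held Grm5 at up to 328 CPM. Their part in the Grm5 values was not tested. Grm3 gave 98% of the UMIs of both genes in frontal cortex astrocytes and 90% to 91% in midbrain.

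Gabbr1 encodes the subunit of the GABA-B receptor that binds GABA (chromosome 17, 37045966 to 37075067, plus strand). It was nearly level, at 368 CPM in transgenic and 330 CPM in wildtype frontal cortex astrocytes and 311 CPM in both midbrain libraries. The genotypes differed by 0.16 (0.08 to 0.24) in frontal cortex and 0.0038 (-0.06 to 0.07) in midbrain, and the regions by -0.09 in wildtype and -0.24 in transgenic mice. Its thinned share was 64.6%, 58.2%, 58.1% and 58.3% of astrocytes, against 16.3% to 18.7% of microglia.

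Gabbr2 encodes the partner that couples the receptor to its G protein (chromosome 4, 46662305 to 46991873, minus strand) and did differ by region. It was at 106 CPM in transgenic and 77.5 CPM in wildtype frontal cortex astrocytes and at 231 and 248 CPM in midbrain. Both midbrain libraries were above both frontal cortex ones, by 1.68 (1.56 to 1.80) in wildtype and 1.12 (1.0 to 1.24) in transgenic mice. Transgenic was above wildtype in frontal cortex by 0.45 (0.30 to 0.61) and below it in midbrain by -0.11 (-0.18 to -0.04), both short of 1.5 times. The thinned share was 25.4% and 17.3% in frontal cortex astrocytes and 46.0% and 47.5% in midbrain, against 0.39% to 1.55% of microglia. Gabbr2 gave 22.4% and 19.0% of the UMIs of the pair in frontal cortex and 42.6% and 44.4% in midbrain.

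Gabrg1 and Gabra2 encode the gamma1 and alpha2 subunits of the GABA-A receptor and are neighbours on the minus strand of chromosome 5, at 70751047 to 70842617 and 70957597 to 71095849, 114979 bases apart. Gabrg1 was at 192 and 179 CPM in transgenic and wildtype frontal cortex astrocytes and at 214 and 221 CPM in midbrain. It was the most even of the ion channel genes among the 10, with log2 ratios of at most 0.30 in size in the 4 comparisons. Gabra2 was at 82.2 and 79.8 CPM in frontal cortex and 36.4 and 42.3 CPM in midbrain, lower in midbrain by -0.91 (-1.07 to -0.76) in wildtype and -1.18 (-1.36 to -0.99) in transgenic mice. In wildtype cells with under 4 UMIs of other types' markers that difference was -0.53. Between genotypes Gabra2 differed by 0.04 (-0.12 to 0.21) in frontal cortex and -0.22 (-0.40 to -0.04) in midbrain. Thinned shares were 40.5%, 41.4%, 46.4% and 46.9% for Gabrg1 and 20.9%, 21.8%, 9.99% and 9.23% for Gabra2. Gabrg1 gave 93% to 95% of the gamma subunit UMIs in every astrocyte library and 6.56% and 3.09% in frontal cortex neurons. Gabra2 gave 63% and 60% of the alpha subunit UMIs in frontal cortex astrocytes and 43% in midbrain.

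**Figure D2:**
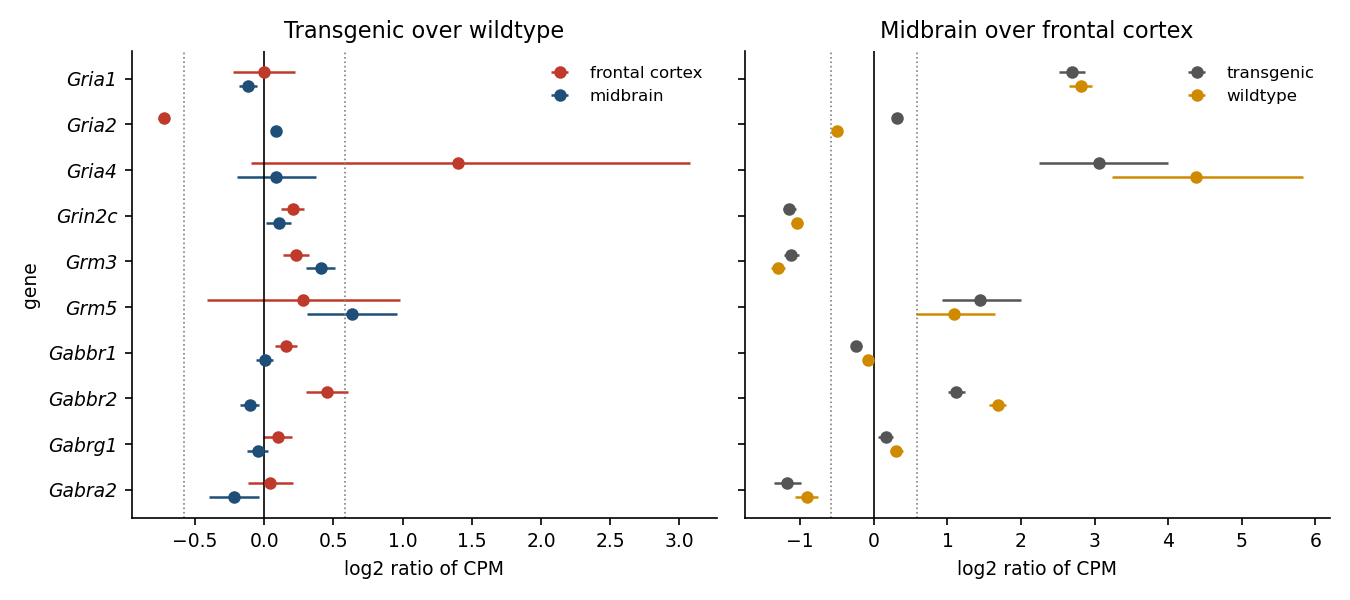
Log2 ratios of CPM for the 10 receptor genes, transgenic over wildtype within each region (left) and midbrain over frontal cortex within each genotype (right), with exact 95% counting intervals and dotted lines at 1.5 times. Gria2 in frontal cortex (-0.73) and Grm5 in midbrain (0.63) pass the line among the compared genes on the left, where Gria4 in frontal cortex was too low to be compared, and 7 genes pass it in both genotypes on the right.

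Across the deposited cell types with at least 50 cells, 3 genes were highest in astrocytes in all 4 libraries. In transgenic midbrain only 7 types reached 50 cells, against 13 in wildtype midbrain. The labels mNeur, imNeur and OPC were not among the 7, so transgenic midbrain astrocytes were not ranked against them for any gene. Grin2c reached at most 15.3 CPM in any other type, against 144 to 344 CPM in astrocytes. Gabrg1 was next highest in the midbrain cells labelled imNeur (55.5 CPM), and Gabbr2 in frontal cortex neurons, where in the transgenic library astrocytes and neurons both stood at 106 CPM. Grm3 had a second site: pericytes (label PC) were at 199 and 170 CPM in frontal cortex and at 183 and 175 CPM in midbrain, above the midbrain astrocytes. Gria1 was higher in frontal cortex neurons (346 and 378 CPM) than in astrocytes, but in midbrain the astrocytes led (279 and 302 CPM, against 67.3 CPM in wildtype cells labelled mNeur). Gria2 was at 2087 and 1787 CPM in transgenic and wildtype frontal cortex neurons, above the transgenic astrocytes (1183 CPM) and below the wildtype ones (1958 CPM). In wildtype midbrain the imNeur cells (1565 CPM) lay above the astrocytes (1384 CPM). Transgenic midbrain astrocytes (1466 CPM) led only among the 7 types ranked there, which leave out imNeur and mNeur. Gria4 and Grm5 were far higher in frontal cortex neurons (180 to 190 CPM and 194 to 419 CPM). In midbrain they were highest in the wildtype cells labelled imNeur, at 259 and 328 CPM. That label did not hold by its markers, because 7 of 7 OPC markers were highest in it. The frontal cortex label OPC, where 6 of 7 OPC markers and 6 of 6 fibroblast markers were highest, had Gria4 at 69.9 and Grm5 at 95.1 CPM in wildtype mice. In the midbrain OPC label 6 of 6 fibroblast markers and none of the OPC markers were highest. Gabra2 was higher in frontal cortex neurons (209 and 179 CPM) than in astrocytes. Gabbr1 was found in every type, from 22.1 CPM in transgenic midbrain macrophages (MAC) to 384 CPM in transgenic frontal cortex neurons. Neighbours in the order of types lay within counting error in places, as in wildtype midbrain, where astrocytes had 311 and imNeur cells 310 CPM of Gabbr1.

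**Figure D3:**
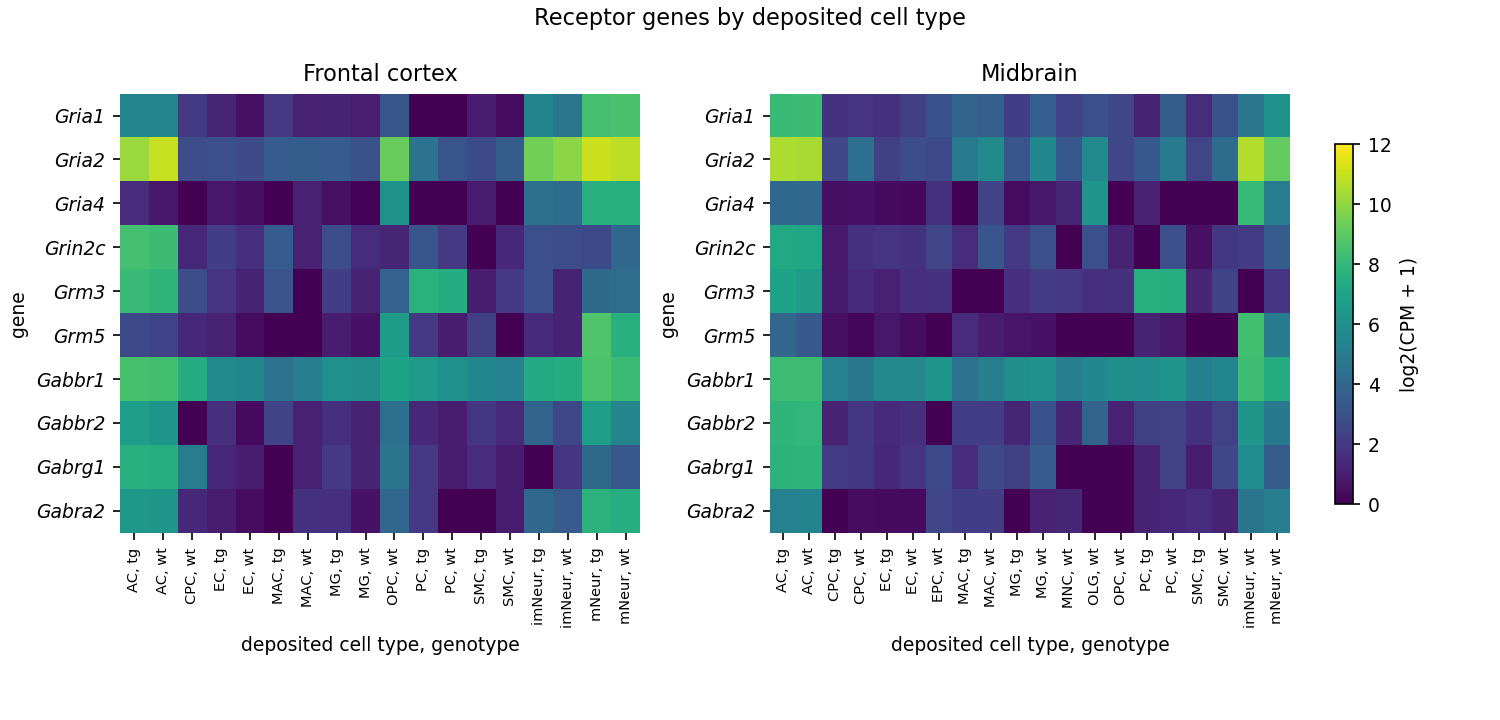
Levels of the 10 receptor genes as log2(CPM + 1), by deposited cell type and genotype (tg transgenic, wt wildtype), for types with at least 50 cells in the library. Grin2c, Gabrg1 and Gabbr2 are brightest in astrocytes (AC), Grm3 also in pericytes (PC), and Gria4 and Grm5 in neurons (mNeur) of frontal cortex and in the midbrain imNeur cells, which carry OPC markers.

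Within each region the levels also differed between astrocyte clusters. The clusters were made from all genes, these included, so their differences are given as a description; Gria1 is among the 10 leading genes of frontal cortex cluster 22 and Gria4 among those of midbrain cluster 1. Frontal cortex cluster 22 (53 transgenic and 47 wildtype cells) had Gria1 at 392 and 409 CPM, against 12.6 and 18.1 CPM in the main cluster 1, and of the 301 and 366 Gria1 UMIs of frontal cortex astrocytes it held 163 and 144. It also had more Grm5 (26.4 and 28.4 CPM, from 11 and 10 UMIs) and Gabbr2 (260 and 116 CPM), and less Grin2c (183 and 145 CPM) and Grm3 (106 and 90.9 CPM), than cluster 1 with its 414 and 316 CPM of Grin2c and 286 and 247 CPM of Grm3. Over the 10 genes its mean absolute log2 difference was 0.48 and 0.87 from midbrain cluster 1 and 1.57 and 1.38 from frontal cortex cluster 1. Midbrain cluster 10 (106 and 284 cells) was nearer to frontal cortex cluster 1 in some genes than midbrain cluster 1 was. It had Gria1 at 88.4 and 87.6 CPM and Gria4 at 2.65 and 2.68 CPM, and Grin2c at 270 and 226 CPM, Grm3 at 259 and 178 CPM and Gabra2 at 54.8 and 68.3 CPM. Its mean difference was 0.75 and 0.73 from frontal cortex cluster 1 and 0.81 and 0.89 from midbrain cluster 1, so it lay about as far from either. Its Gria1 was still above that of frontal cortex cluster 1, as was its Gabbr2 (156 and 168 CPM, against 103 and 78.5 CPM). Midbrain cluster 5 had the most Gria1 (448 and 491 CPM) and Gabbr2 (339 and 364 CPM) of all clusters but little Gria4 (4.38 and 4.03 CPM, against 20.6 and 26.7 CPM in midbrain cluster 1), and Gria2 gave 72.0% and 67.4% of its AMPA subunit UMIs. Gabbr1 and Gabrg1 moved least, between 210 and 420 CPM and between 158 and 262 CPM over all 10 clusters and both genotypes.

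**Figure D4:**
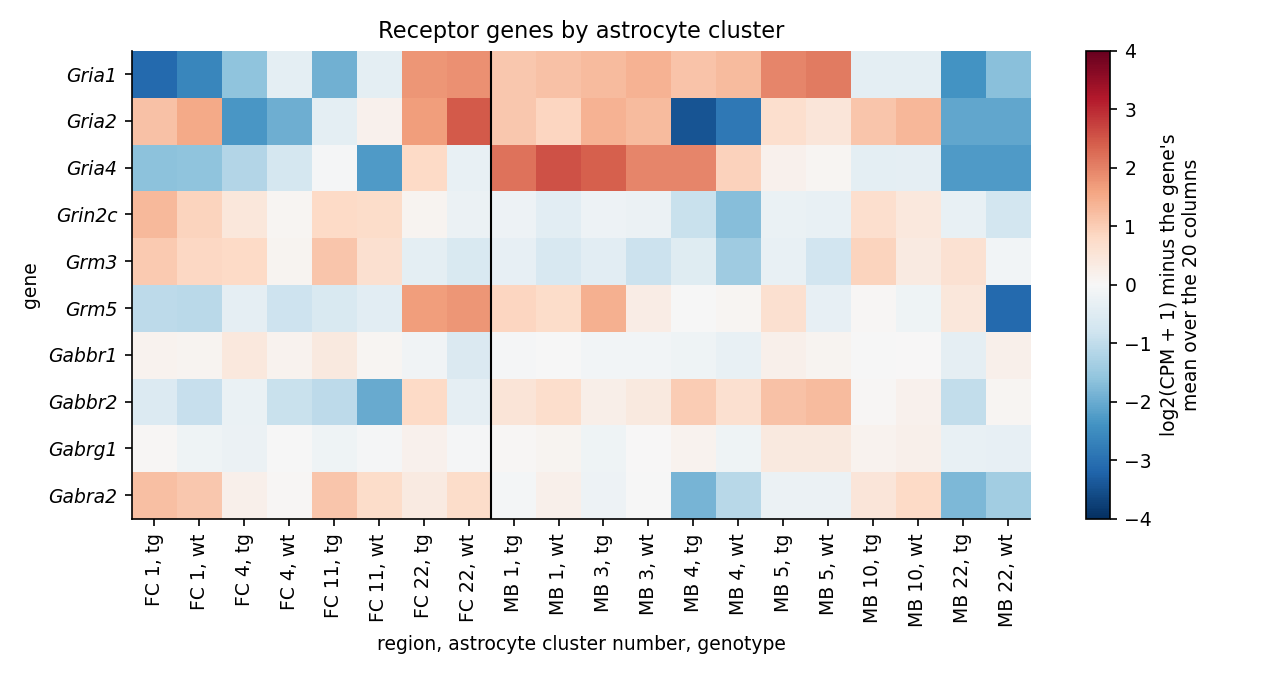
Levels of the 10 receptor genes in the 10 astrocyte clusters of frontal cortex (FC) and midbrain (MB) by genotype (tg, wt), as log2(CPM + 1) minus the gene's mean over the 20 columns. Frontal cortex cluster 22 has Gria1 (392 and 409 CPM) as high as midbrain clusters, midbrain cluster 10 has it at 88.4 and 87.6 CPM, and Gria2 is low in frontal cortex cluster 4 and midbrain clusters 4 and 22.

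Within clusters the genotype differences kept some directions and lost others. Gria2 was lower in transgenic cells in 4 of 4 frontal cortex clusters, with log2 ratios of -0.35 in cluster 1, -0.40 in cluster 4, -0.57 in cluster 11 and -0.78 in cluster 22. In midbrain its ratios ran from -0.61 in cluster 4, within counting error, to 0.22 in cluster 1, with -0.23 (-0.31 to -0.15) in cluster 10. Grm3 was above 0 in 10 of 10 clusters, from 0.21 to 0.93, but within counting error in cluster 22 of each region. The 0.93, in shallow midbrain cluster 4, rests on 39 transgenic and 32 wildtype UMIs. Gabbr2 was above 0 in 4 of 4 frontal cortex clusters, at 0.39, 0.61, 0.97 and 1.16. Gria1 was level between genotypes in frontal cortex as a whole but had ratios below 0 in 4 of 4 clusters there. They were -0.52 in cluster 1, -1.24 in cluster 4, -1.55 in cluster 11 and -0.06 in cluster 22, the last within counting error. In cluster 11 the 58 transgenic Gria1 UMIs came from 12 cells, with 24 in 1 cell. The 48 wildtype ones came from 7 cells, with 27 in 1 cell. In cluster 4 the 33 and 46 UMIs came from 15 and 18 cells. Counting intervals do not cover such unevenness between cells. Cluster 22, which held most of the transgenic Gria1, made up 6.11% of transgenic and 4.40% of wildtype astrocytes. With cells thinned to 3000 UMIs the frontal cortex ratio of Gria1 was 0.64. Grm5 in midbrain was at 1.23 in cluster 3 and 1.09 in cluster 5 but 0.14 in cluster 1.

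Gria2 also varied with the depth and mitochondrial share of the cell, in a similar way in all 4 libraries. In cells under 2000 UMIs it was at 254 and 292 CPM in transgenic and wildtype frontal cortex and 169 and 186 CPM in midbrain. At 4000 to 8000 UMIs it was at 1731 and 2623 CPM, and at 1721 and 1513 CPM, and above 12000 UMIs it was lower again, at 958 and 1406 CPM and at 1240 and 920 CPM. It was also lower in cells with a high mitochondrial share. From cells under 4% mitochondrial UMIs to those of 12% or more it went from 1637 to 637 CPM in transgenic and from 2385 to 808 CPM in wildtype frontal cortex, and from 1707 to 778 CPM and from 1703 to 659 CPM in midbrain. Wildtype exceeded transgenic frontal cortex cells in all 5 depth bins and all 5 mitochondrial bins, within counting error under 2000 UMIs. The shallow clusters had the least Gria2: frontal cortex cluster 4 had 143 and 190 CPM, midbrain cluster 4 had 65.5 and 99.9 CPM and midbrain cluster 22 had 171 and 172 CPM. In midbrain cluster 4 Gria1 stayed at 255 and 277 CPM, so that Gria2 gave 19.4% and 25.9% of the AMPA subunit UMIs there. Grin2c, Gabbr1, Gabbr2 and Gabrg1 differed by less than 1.5 times between any 2 mitochondrial bins of a library, for example Gabrg1 from 182 to 165 CPM and Gabbr1 from 377 to 439 CPM in transgenic frontal cortex. With the mitochondrial and ribosomal protein genes taken out of the totals, the frontal cortex ratio of Gria2 was -0.67. Transgenic frontal cortex had the most mitochondrial RNA of the 4 libraries and the larger share of shallow cells of its region. Counted by UMIs, shallow cluster 4 held 12.7% of transgenic and 6.14% of wildtype frontal cortex astrocyte UMIs. Deep cluster 11 (median 17600.5 and 16009.5 UMIs a cell) held 27.9% and 6.46%. Gria2 in cluster 11 was at 551 and 816 CPM, against 1630 and 2074 CPM in cluster 1. With 1 library a group, the part of mitochondrial RNA and of these clusters in the pooled difference of Gria2 was not tested.

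**Figure D5:**
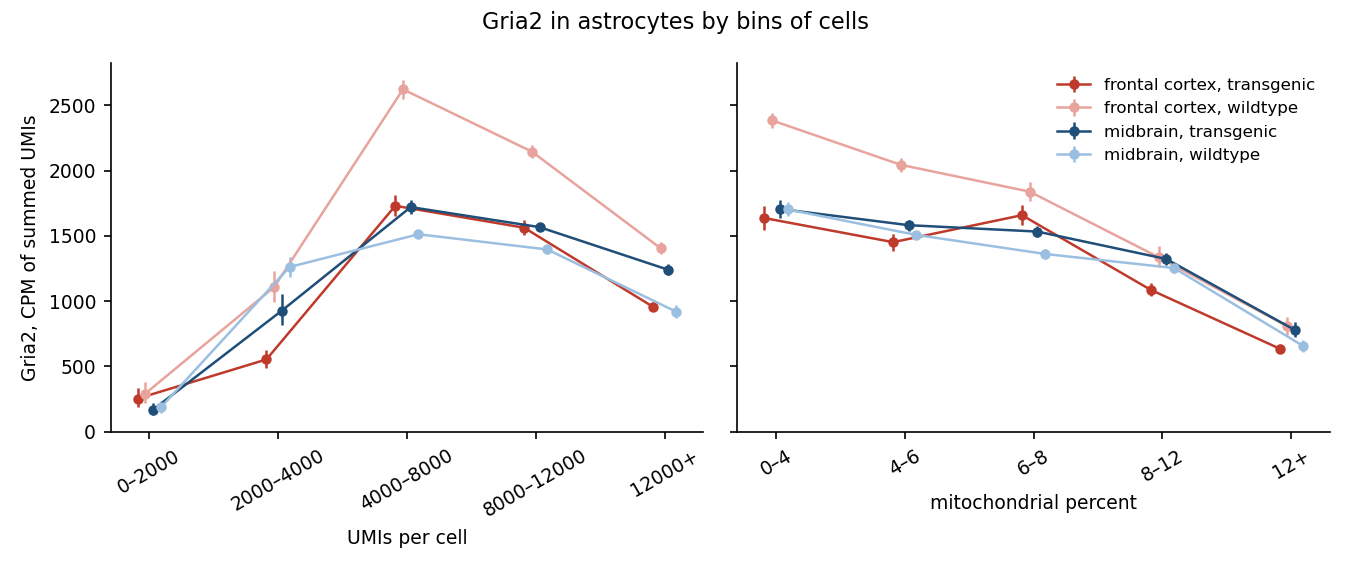
Gria2 CPM in astrocytes binned by UMIs per cell (left) and by mitochondrial percent (right), with 1 line for each library and exact 95% counting intervals. All 4 lines are lowest in cells under 2000 UMIs and lower at 12% or more mitochondrial UMIs than under 4%, and the transgenic frontal cortex line lies below the wildtype one in every bin.

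The remaining genes of these receptors, from lists of other subunits, auxiliary proteins and signalling proteins, gave few calls between genotypes. Of 8 other AMPA, kainate and delta receptor genes 4 reached 5 CPM in frontal cortex, and 0 were called in either region, among them Grik5 (54.3 and 45.3 CPM in transgenic and wildtype frontal cortex), Grik2 (19.8 and 18.4) and Grid1 (15.2 and 14.4). Of 6 other NMDA receptor genes 2 were compared and 0 called between genotypes. Grin3a, an inhibitory subunit, was called higher in midbrain in both, at 49.7 and 51.6 CPM against 28.4 and 30.8 CPM, and Grin2b stood at 42.1 to 57.4 CPM. Grin1 and Grin2a, known from neurons, were at 2.15 CPM or less. None of 5 other metabotropic genes found in both tables reached 5 CPM, among them Grm4 (4.43 and 4.31 CPM in midbrain) and Grm8 (1.48 and 2.49). Of 13 other GABA-A genes 4 were compared. In transgenic frontal cortex 1 of these, not reported here, was called higher and 0 lower. Of all genes compared there 5.65% were higher and 5.94% lower. In midbrain 0 were called between genotypes. Gabrb1, which encodes the beta1 subunit, was the highest, at 452, 471, 482 and 469 CPM in the 4 libraries, with ratios of at most 0.09 in size. Gabra4 and Gabrg3 gave no call between genotypes.

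Of 32 auxiliary and anchoring genes 23 were compared between genotypes. In frontal cortex 3 were called higher and 2 lower, where 5.65% of all genes compared were higher and 5.94% lower, and in midbrain 0, where 2.20% and 1.26% were. The higher ones included Shisa6, which slows AMPA receptor desensitisation (9.31 against 0.94 CPM), and Neto2, an auxiliary protein of kainate receptors (19.5 against 8.0 CPM). Grip1, an AMPA receptor scaffold, was also higher (10.3 against 6.83 CPM). The lower ones were Cacng8, a transmembrane AMPA receptor regulator (12.9 against 19.7 CPM), and Kctd12, an auxiliary GABA-B subunit (28.2 against 47.7 CPM). The most abundant, Gabarap (205 to 229 CPM), Gabarapl2, Sqstm1 and Gphn, differed between genotypes by at most 0.23 on the log2 scale. Of 30 signalling genes 24 were compared, to be read against the same shares of all genes. Gnai1 (12.7 against 6.24 CPM) and Prkcd (68.5 against 37.8 CPM) were higher and Plcb4 (34.8 against 57.7 CPM) and Kcnj3 (3.58 against 8.83 CPM) lower in transgenic frontal cortex, and Rgs4 (7.99 against 5.04 CPM) was higher in transgenic midbrain. Between regions 7 of 25 signalling genes were higher and 3 lower in wildtype midbrain, where 8.31% of all genes compared were higher and 9.50% lower. In transgenic midbrain 9 of 24 were higher and 4 lower, where 11.0% and 10.4% of all genes were. Gnao1, the Go alpha subunit through which GABA-B and mGluR3 signal, was at 851 and 1017 CPM in frontal cortex and 188 and 216 CPM in midbrain. The other abundant ones were Kcnj10, an inward rectifier channel (382 and 258 CPM, and 611 and 472 CPM), Grk3 (225 and 289, 388 and 411 CPM) and Gnai2 (283 to 356 CPM).

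The genes with the most similar pattern were sought over 38 combinations of cell type and library with at least 50 cells, among 12599 genes at 20 CPM or more in at least 1 of them, by the correlation of log2(CPM + 1). The points share libraries and depth, so r is a description. Among the genes most like Gria2 were Phactr3 (r = 0.970) and Kcnk10 (0.942). Grin2c was most like Bmpr1b (0.920), the glutamate transporter gene Slc1a2 (0.889) and Btbd17 (0.877), and Gabrg1 like Mmd2 (0.913), Wnt7b (0.911) and Ttyh1 (0.908). Gria1 (Adgrb3, 0.906; Mgat4c, 0.905) and Gabbr2 (Phyhipl, 0.922; Arxes1, 0.918) had B3galt2 in common, at 0.898 and 0.926. Grm5 followed Tmem145 (0.937), Gpr158 and Sntg1, Gria4 followed Fgf14 (0.897), Frrs1l and Fbxo41, and Gabra2 followed Epha5 (0.924), Nrcam and Kcnq3. Gabbr1 followed Adgrb2 (0.932), Rtn3 and Pabpn1. Grm3 had the weakest matches, Elmo2 (0.807), Col7a1 (0.780) and Adk (0.772). Among the 10 genes themselves the closest pairs were Gria2 with Gabra2 (0.912) and with Gabbr2 (0.910), and the least alike were Gria4 and Grm3 (0.016).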

How the data were processed

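The authors processed the 10x Genomics 3′ reads (version 3 chemistry) with Cell Ranger 3.0.0 and Seurat 3.1.5 on mm10, per the submitters' processing notes. The values the authors deposited are unscaled UMI counts (19602 features for frontal cortex, 19956 for midbrain). Their deposited cell tables add a mitochondrial share in percent, a cluster and a cell type, used as given. Cell filters and doublet removal are not given in the sources used here, and no doublet caller was run. The strain's allele is not reported here.

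Counts were summed over the cells of a type or cluster in a library and scaled to CPM (Python, numpy 2.4.6, pandas 2.3.3, scipy 1.17.1). Intervals are exact 95% ones, Poisson for CPM, Clopper-Pearson for shares and for log2 ratios conditional on the sum of both counts; the ratio step was tested on simulated counts. With 1 library a group no test was run. Shares of cells were also taken after thinning each cell to 3000 UMIs, with shallower cells left out. The 10 genes and all lists were chosen with earlier results of these data known. The genes named were the 10, the 4 with the highest mean CPM of each other list and all of them past 1.5 times between genotypes, and the 3 most similar to each. The text gives the r of these where space allows.

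The 11 alternatives chosen at the start were edgeR 4.0.16 TMM factors, DESeq2 1.42.0 size factors (R 4.3.3), the mean of per-cell CPM, totals without mitochondrial and ribosomal protein genes, thinning, a filter on mitochondrial share and genes, cells with under 4 UMIs of other types' markers, equal weights for clusters, no low filter, a 20 CPM filter and a threshold of 1.2 times. A further 4 were added after the data were seen: cells under 5% mitochondrial UMIs, cells with at least 5000 UMIs, no shallow clusters (frontal cortex 4, midbrain 4 and 22), and cluster 1 alone. Gene positions are from the GENCODE vM21 annotation of GRCm38, the assembly mm10 names. A few genes that these rules would name are not reported here.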

Additional observations from a re-analysis of the deposited data

Results flagged for a closer look

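In 2 of the 10 genes the pooled astrocytes of the regions moved in opposite directions between genotypes, with both counting intervals leaving out 0. Gria2 had a log2 ratio of transgenic to wildtype of -0.73 in frontal cortex and 0.083 in midbrain. Gabbr2 had 0.45 in frontal cortex and -0.11 in midbrain. Each group is 1 library, so the difference between regions was not tested, and neither midbrain value reaches 1.2 times. The midbrain clusters did not share 1 direction. Gria2 was at -0.23 (-0.31 to -0.15) in cluster 10, against 0.22, 0.13 and 0.18 in clusters 1, 3 and 5. Gabbr2 was at 0.36 (0.0021 to 0.72) in cluster 4, against -0.19 in cluster 1. The direction of Gabbr2 was the same in 12 of 12 alternatives in both regions. That of Gria2 was the same in 12 of 12 in frontal cortex and 11 of 12 in midbrain, where cells with under 4 UMIs of other types' markers gave -0.19. The alternatives reuse the same libraries, so these counts are no replicate check. TMM and DESeq2 factors moved every genotype ratio by -0.018 or -0.019 and could not have turned these directions.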

How the results depend on the processing

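The numbers of genes called between genotypes are small and moved with the settings. In frontal cortex 1 call became 2 with the mean of per-cell CPM, with thinned cells, with clusters weighted alike and with no filter on low genes, 3 in cells with under 4 UMIs of other types' markers and at a threshold of 1.2 times, and 0 in cluster 1 alone. In midbrain 1 call became 3 in cells with under 4 UMIs of other types' markers, 2 at 1.2 times, and 0 under 10% and under 5% mitochondrial UMIs, in cluster 1 alone and at 20 CPM. With TMM or DESeq2 factors each count was as in the text. The median ratio in cells with under 4 UMIs of other types' markers was 0.28 in frontal cortex and -0.11 in midbrain, where it was -0.050 in cluster 1 alone. The median of midbrain over frontal cortex was 0.28 under 5% mitochondrial UMIs and -0.29 at 20 CPM in wildtype mice. In transgenic mice it was 0.064 under 10% mitochondrial UMIs, -0.056 in cells with few other markers, -0.033 in cluster 1 alone and -0.041 at 20 CPM. Grm5 between regions in transgenic mice turned to -0.056 in cells with few other markers, a setting that leaves very few Grm5 UMIs in frontal cortex. The 20 CPM filter leaves out Gria4 and Grm5; the other causes were not tested. The ratios between regions of Gria1, Grin2c, Grm3 and Gabbr2 stayed past 1.5 times in 11 of 11 alternatives in both genotypes. No paired analysis was possible because each group is 1 library. Counts limit Gria4 and Grm5 most, with 6 to 37 UMIs in frontal cortex astrocytes.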

Other observations

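Grin1 encodes the subunit that NMDA receptors need to form, and its level by cell type was looked at after the values were seen, as it is the partner of Grin2c. In astrocytes it had 15 and 12 UMIs in transgenic and wildtype frontal cortex and 15 and 25 in midbrain, 2.15, 1.41, 1.30 and 1.52 CPM. Microglia had 1.05, 0.77, 0.31 and 0.91 CPM of Grin1, and frontal cortex neurons 269 and 288 CPM. Grin2c was at 144 to 344 CPM in the same astrocytes. Gabrb1, by contrast, was at 452 to 482 CPM in the same astrocyte sums as Gabrg1 and Gabra2. It was at 115 and 93.6 CPM in frontal cortex neurons and at 2.25 to 17.6 CPM in microglia. Whether single cells held these genes together was not tested.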
